A study of Homo sapiens with 22 samples.

Results

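Interferon-stimulated genes were followed by RNA-Seq through knockout (KO) of the histone variant H2A.X or of the kinase BAZ1B in HUDEP-2 cells, an immortalized human erythroid line grown from cord blood. The set was chosen by name, as 36 listed symbols, and 35 of them were found in both count tables among 59087 gene names, with the remaining symbol not analysed here. The H2A.X experiment had 2 WT and 3 H2A.X KO libraries a day, and the BAZ1B experiment had 3 WT and 3 BAZ1B KO libraries a day, sampled while proliferating (D0) and at D6 of maturation, for 22 libraries in all. Each KO library came from a single-cell subclone that had been transduced with lentiviral Cas9 vectors and sorted. The WT libraries came from subclones that, by the study's account, were handled as the KO lines were. All cells were kept in doxycycline with stem cell factor and erythropoietin, with dexamethasone before maturation and plasma, heparin and insulin during it. Neither the labels nor the methods name an interferon. The guide pairs removed the H2A.X coding sequence, and for BAZ1B a segment around the first exon.

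Type I and type III interferons bind cell surface receptors whose kinases, JAK1 and TYK2, phosphorylate STAT proteins. STAT2 and IRF9 belong to the resulting complex, ISGF3, which binds a short promoter element, the interferon-stimulated response element (ISRE), and switches on genes that sense, bind, cut or trap viral nucleic acid and particles. Many of the same genes are also transcribed at a low level without interferon, and stem and progenitor cells are known for keeping some of them, IFITM genes among them, switched on before they differentiate.

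Promoter sequences are shown first, for 6 members whose levels differed between KO and WT cells and whose windows hold the element. RefSeq promoter windows (GRCh38.p14) of 300 bases, from 250 bases before the transcription start to 50 after it, were matched for 27 of the 35 members. The core GAAANNGAAA, searched on both strands, lay in a window of 18 of these 27 members (66.7%) and of 4.38% of 27305 gene symbols. Stretches are written 5′ to 3′ on the gene's strand, capitals mark each match to the core or its reverse complement that lies wholly before the transcription start, and overlapping matches are merged. IFIT5 has another match that crosses its start and runs past the end of the stretch shown. A match is a description of the letters and not evidence of binding.
IFIT3, chr10:89327821-89327904, plus strand: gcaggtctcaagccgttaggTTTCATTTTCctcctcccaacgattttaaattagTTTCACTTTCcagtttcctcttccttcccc
IFIT5, chr10:89414503-89414567, plus strand: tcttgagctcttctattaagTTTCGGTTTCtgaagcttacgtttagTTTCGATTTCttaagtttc
HERC5, chr4:88456974-88457074, plus strand: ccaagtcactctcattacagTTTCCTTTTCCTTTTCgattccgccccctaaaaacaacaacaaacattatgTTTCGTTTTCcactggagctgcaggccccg
IFITM3, chr11:320866-320932, minus strand: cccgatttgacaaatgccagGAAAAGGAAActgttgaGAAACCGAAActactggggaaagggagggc
BST2, chr19:17405725-17405780, minus strand: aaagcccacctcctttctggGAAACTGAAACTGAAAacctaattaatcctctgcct
ISG15, chr1:1013364-1013419, plus strand: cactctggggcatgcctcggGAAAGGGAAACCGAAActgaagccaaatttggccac

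Members with a match were found among both directions described below at D6. Among members with a window in the H2A.X experiment at D6, 6 of 8 that were higher in KO cells, 3 of 4 that were lower and 4 of 9 that were not called held a match. At D0 these were 4 of 6, 0 of 2 and 9 of 13.

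Libraries held 11910141 to 21013004 counted reads in the H2A.X experiment and 33199408 to 41273244 in the BAZ1B experiment. All 15 erythroid markers, globin and TFRC among them, were read in both experiments, though 1 was at 0 in every BAZ1B KO library at D0. Of the 10 lymphoid and plasmacytoid dendritic cell markers, CLEC4C, LILRA4 and MS4A1 were at 0 in every library. PTPRC, the CD45 gene of most blood cells, made up most of the sum. H2AFX, the gene of H2A.X, was lower in H2A.X KO cells, with log2 fold changes of -1.499 (SE 0.461) at D0 and -1.52 (SE 0.461) at D6 (edgeR adjusted p = 0.0304 and 0.0233). BAZ1B had log2 fold changes of -0.40 (SE 0.0670) and -0.38 (SE 0.0672) in BAZ1B KO cells (edgeR adjusted p = 0.00415 and 0.00250), and reads from exons outside the deleted segment still count there. Of the 6 H2A.X KO libraries, 5 carry the word "redo" in their column names and no WT library does, so this mark and the KO cannot be told apart.

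Levels of the members spanned the whole range from none to abundant (RPKM, reads scaled to summed exon length and library size, computed here; the tables of the 2 experiments were normalised separately and are not compared by test). BST2, the tethering protein tetherin, stood highest in proliferating WT cells, at a mean of 97.1 RPKM in the H2A.X experiment and 119 RPKM in the BAZ1B experiment. IFITM2, a membrane protein that blocks viral fusion, followed among the RNAs of those WT cells with 10.5 and 15.5 RPKM, and ADAR, which edits adenosines in double-stranded RNA, had 9.69 and 22.6 RPKM. Between IFITM2 and ADAR the order differed between the experiments. The cytosolic DNA sensor CGAS lay at 5.78 and 7.87 RPKM, and ISG15, the ubiquitin-like protein that gives its pathway its name, at 6.58 and 4.999 RPKM.

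Other classical members were close to silent. OAS2, which makes the RNase L activator 2-5A, the antiviral GTPase MX1 and IFI44L had 0 reads in every library of both experiments, which allows at most 0.0173 CPM (reads scaled to library size) over the pooled H2A.X libraries and 0.00666 CPM over the pooled BAZ1B libraries, for counting error only. OAS3, OASL, IFI16 and IFI44 had at most 10 reads in any library. In all, 26 members passed the filter on low counts in the H2A.X experiment and 28 in the BAZ1B experiment, where IFITM1 and TRIM22 passed as well. Members that failed it are IFI16, OAS2, OAS3, OASL, MX1, IFI44 and IFI44L in both experiments.

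**Figure D1:**
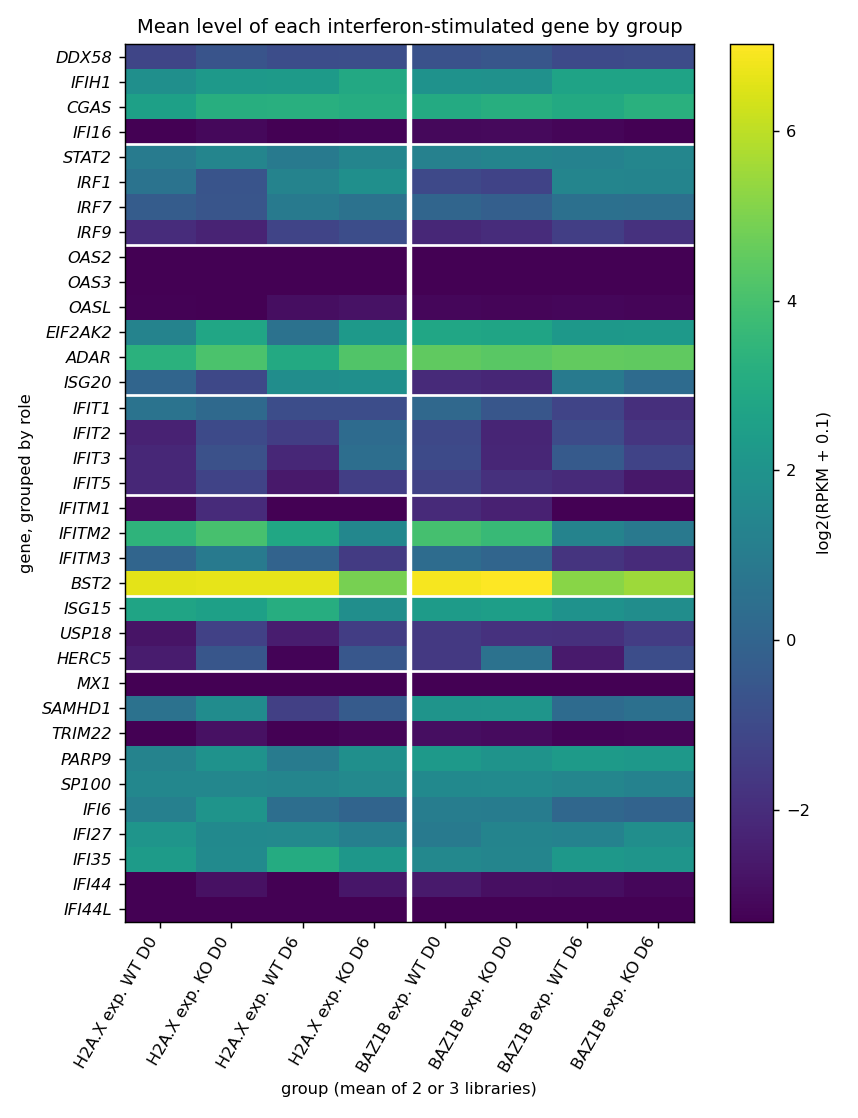
Mean level of each of the 35 members (rows, grouped by role and separated by white lines) in the 8 groups of libraries (columns), as log2(RPKM + 0.1), shown as color. BST2 is the brightest row in every group, while OAS2, MX1 and IFI44L stay at the floor throughout.

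The interferon genes themselves were at or near 0. Of 22 interferon ligand genes, 18 had no read in any H2A.X library and 19 none in any BAZ1B library. IFNB1, the first interferon made after most viral signals, had 2 reads in all in each experiment. IFNL3 had at most 9 and 18 reads in a library and IFNL4 at most 17 and 55, in the H2A.X and BAZ1B experiments, and IFNL2 and IFNL3 are near-identical copies that may share reads. Of the ligands, IFNL4 in both experiments and IFNL3 in the BAZ1B experiment passed the filter on low counts, and neither was called in KO against WT cells.

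The first comparison asked which members differ in cells without H2A.X. At D0, 9 of 26 members were higher and 2 lower in H2A.X KO than in WT cells at an edgeR adjusted p below 0.05, where 35.1% of all 13236 genes were called (18.4% higher, 16.7% lower). At D6, 9 were higher and 5 lower, against 43.1% of all genes (22.2% higher, 20.9% lower). The 26 members had a median log2 fold change of 0.61 at D0 and 0.31 at D6, beside 0.01 and -0.01 over all genes tested. At both days, 7 members were higher, namely IFIT2, IFIT3, EIF2AK2, ADAR, HERC5, SAMHD1 and PARP9, and 1 was lower, IFI35. The share of all genes called in the same direction at both days was not counted, so these counts cannot be set against one. In a fit of the D6 libraries alone, SAMHD1 was not called (log2 fold change 1.28, edgeR adjusted p = 0.0705). No member passed the stricter cutoff of adjusted p below 0.001 with an absolute log2 fold change above 1.5, as did 0.166% of genes at D0 and 0.151% at D6.

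Among the IFIT proteins, which bind the 5′ ends of foreign RNA, IFIT3 differed most clearly. Its normalised read counts were 10.1 and 12.0 in WT cells and 32.1, 54.1 and 46.9 in KO cells at D0, which gave a log2 fold change of 1.999 (SE 0.436, edgeR adjusted p = 0.0101). The D6 counts were 9.14 and 12.5 in WT against 72.5, 146 and 110.1 in KO cells, with a log2 fold change of 3.35 (SE 0.461, edgeR adjusted p = 0.00314). Every KO subclone lay above both WT libraries at both days.

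IFIT2, which binds AU-rich RNA, behaved in the same direction. Its normalised counts were 5.05 and 9.57 in WT and 28.7, 37.8 and 26.3 in KO cells at D0 (log2 fold change 2.08, SE 0.479, edgeR adjusted p = 0.0116). The D6 counts were 21.7 and 19.7 in WT against 70.7, 125 and 64.7 in KO cells (2.05, SE 0.437, edgeR adjusted p = 0.00610). In the fit of both days IFIT5 was called at D6 only, with 2.28 and 7.16 in WT and 34.0, 19.96 and 10.6 in KO cells. In fits of 1 day alone it was called at D0 (1.37, edgeR adjusted p = 0.0262) and not at D6 (2.30, edgeR adjusted p = 0.072). Its difference between the days was not called (edgeR adjusted p = 0.724). IFIT1, the cap-sensing member, had a log2 fold change of -0.45 at D0 and -0.00 at D6 and was not called. Thus the fit of both days called 3 of 4 IFIT genes higher at D6 and 2 of 4 at D0, beside 22.2% and 18.4% of all genes. Annotated exons of IFIT2 and IFIT3 overlap those of LIPA on the opposite strand, and LIPA had log2 fold changes of 0.71 (not called) and 1.13 (edgeR adjusted p = 0.0115) at D0 and D6. Whether counting used the strand is not given in the sources used here, so the part of LIPA reads in these counts was not tested.

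**Figure D2:**
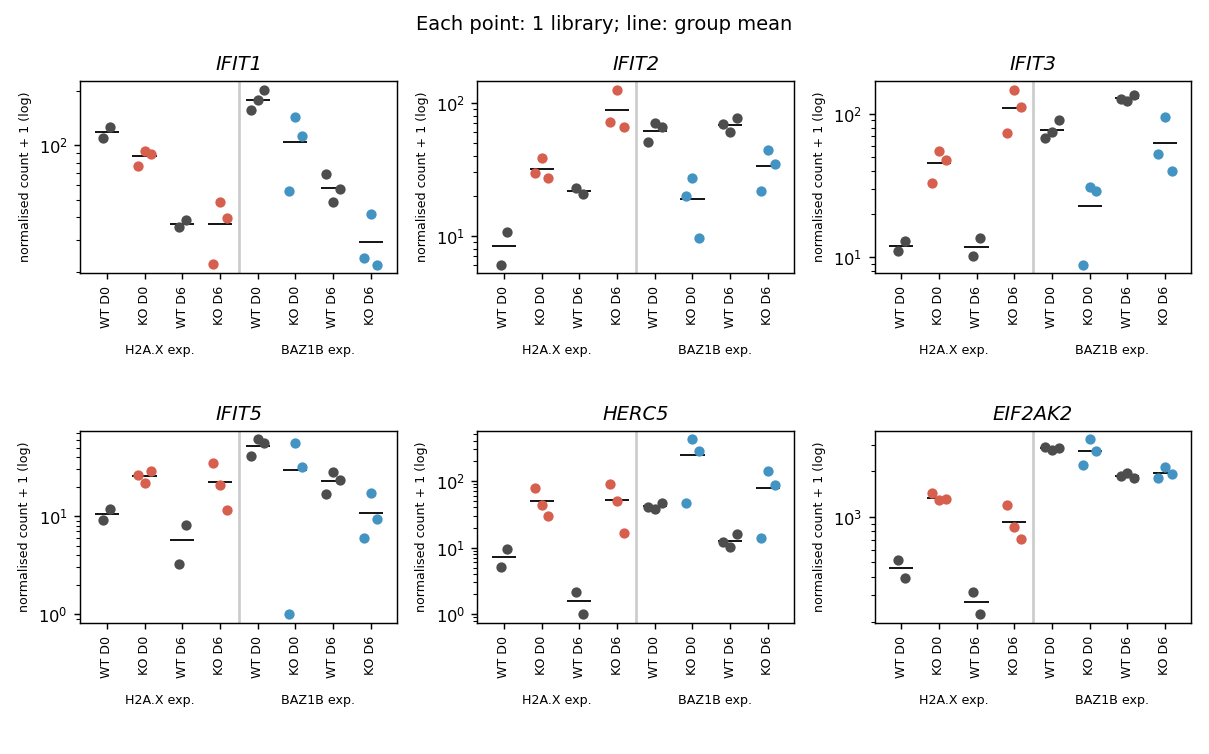
Normalised read count plus 1 (log axis, scaled within each experiment) of the 4 IFIT genes, HERC5 and EIF2AK2 in every library, with WT in gray, H2A.X KO in red, BAZ1B KO in blue and a line at each group mean. IFIT2 and IFIT3 lie above WT in every H2A.X KO library and below WT in every BAZ1B KO library of the same day, and HERC5 is high in 2 of 3 BAZ1B KO subclones.

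Of 3 tested RNA-acting effectors, 2 were higher at both days, where 18.4% of all genes were higher at D0 and 22.2% at D6. EIF2AK2, the kinase PKR that halts translation on double-stranded RNA, had 517 and 392 normalised counts in WT and 1434, 1282 and 1308 in KO cells at D0 (log2 fold change 1.56, SE 0.248, edgeR adjusted p = 0.00491). At D6 the values were 313 and 224 against 1197, 851 and 709.5 (1.77, SE 0.255, edgeR adjusted p = 0.00327). ADAR had 2369 and 1799.5 in WT and 3720.1, 3708 and 3575 in KO cells at D0, and 1845 and 1509 against 4754, 4290.0 and 2933 at D6. Neither gene's groups overlapped at either day, and ADAR's log2 fold changes were 0.82 (SE 0.215) and 1.25 (SE 0.219), with edgeR adjusted p = 0.0177 and 0.00402. ISG20, a single-strand exonuclease and the remaining tested gene of this role, was not called at either day, with log2 fold changes of -1.32 at D0 and 0.10 at D6. Other fits called ISG20 lower at D0. With the D0 libraries alone it had -1.34 (edgeR adjusted p = 0.04), and without the filter on low counts -1.32 (edgeR adjusted p = 0.000106). With the replicate number as a block it had -1.10 (edgeR adjusted p = 0.0194), though KO and WT libraries of the same number correlated by only 0.0668 and 0.101 at D0.

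HERC5, the ligase that attaches ISG15 to new proteins, was nearly absent from WT cells. Its normalised counts were 4.04 and 8.38 in WT against 76.9, 42.1 and 28.8 in KO cells at D0 (log2 fold change 2.98, SE 0.829, edgeR adjusted p = 0.0211). At D6 WT cells had 1 read in all and KO cells 164, a depth-adjusted ratio of 74.0 (95% interval 13.1 to 2940, for counting error only, edgeR adjusted p = 0.00508). USP18, which removes ISG15 and dampens the receptor, was higher at D0 (log2 fold change 2.67, SE 0.655, edgeR adjusted p = 0.0139) and at D6 had 1.65 (SE 0.622, edgeR adjusted p = 0.0533). ISG15 itself had 61.7 and 139 in WT and 93.8, 77.3 and 97.0 in KO cells at D0, with overlapping groups. At D6 it was lower, with 113 and 154 against 43.2, 52.3 and 59.9 (log2 fold change -1.36, SE 0.352, edgeR adjusted p = 0.0124).

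Other effectors were divided. SAMHD1, which breaks down deoxynucleotides, had 294 and 243 in WT and 638, 595 and 569 in KO cells at D0, and 74.2 and 34.0 against 146, 88.4 and 156 at D6 (log2 fold changes 1.16 and 1.23, edgeR adjusted p = 0.0180 and 0.0160). PARP9, an ADP-ribosylation factor, had 411 and 335 in WT and 559.7, 664 and 572 in KO cells at D0, and 304 and 293 against 644, 598 and 411 at D6 (0.68 and 0.88, edgeR adjusted p = 0.0303 and 0.00944). IFI35 went the other way, with 154 and 190.2 in WT and 106, 114 and 86.3 in KO cells at D0, and 238 and 331 against 133, 156 and 157 at D6 (-0.75 and -0.93, edgeR adjusted p = 0.0311 and 0.0104). IFI6, IFI27 and the nuclear body protein SP100 were not called.

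The membrane proteins were lower at D6 in all 3 tested genes, beside 20.9% of all genes, and not called at D0 in the edgeR fit of both days. DESeq2 called IFITM3 higher at D0 (log2 fold change 0.94, DESeq2 adjusted p = 0.0367), as did a fit of the D0 libraries alone (0.92, edgeR adjusted p = 0.023). BST2 had 1451 and 2304 in WT and 2268, 1868 and 1750.0 in KO cells at D0, overlapping ranges. At D6 it had 1642 and 2206 in WT and 658, 450.5 and 606 in KO cells (log2 fold change -1.75, SE 0.240, edgeR adjusted p = 0.00314). IFITM3, which traps viruses in endosomes, had 49.5 and 43.1 in WT and 96.4, 92.7 and 77.3 in KO cells at D0 but 48.0 and 39.4 against 11.0, 7.603 and 19.3 at D6 (-1.79, SE 0.392, edgeR adjusted p = 0.00671). KO cells thus lay above WT at D0 and below WT at D6. IFITM2 showed the same arrangement, with 256 and 336 against 566, 437 and 355 at D0 and 247 and 157 against 102, 47.5 and 74.3 at D6 (-1.44, SE 0.336, edgeR adjusted p = 0.00818). IFITM2 and IFITM3 are close copies, and reads could be split between them.

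The difference of the H2A.X KO effect between the days was called for 2 of 26 members, against 1.34% of all genes (0.302% higher, 1.04% lower). Both differences were negative. They were IFITM3, at -2.72 (SE 0.542, edgeR adjusted p = 0.0424), and BST2, at -1.81 (SE 0.344, edgeR adjusted p = 0.0361). With subclone number as a block, since the same numbers at D0 and D6 deviated together in this experiment, 4 members were called, IFITM2 and IRF1 in addition. The BST2 call was lost in 8 of 10 fits that left out 1 library, and the IFITM3 call in 9 of 10.

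Of 3 tested sensors, 1 was called at each day, beside 35.1% of all genes at D0 and 43.1% at D6. CGAS was higher in H2A.X KO cells at D0 (log2 fold change 0.60, SE 0.140, edgeR adjusted p = 0.0119), while the RNA sensor IFIH1 (MDA5) was higher at D6 (0.63, SE 0.167, edgeR adjusted p = 0.0136) and DDX58 (RIG-I) was called at neither day. At D0 IFIH1 had 0.43 (edgeR adjusted p = 0.07), and a fit of the D0 libraries alone called it (0.41, edgeR adjusted p = 0.0451). The difference between the days was called for neither CGAS nor IFIH1 (edgeR adjusted p = 0.107 and 0.76). STAT2, IRF7 and IRF9, of which STAT2 and IRF9 belong to ISGF3, were not called by edgeR, while DESeq2 called STAT2 higher at D6 (log2 fold change 0.52, DESeq2 adjusted p = 0.0493). IRF1, which drives basal expression of such genes, was lower at D0, with 291 and 324 in WT against 80.3, 127 and 149 in KO cells (-1.37, SE 0.316, edgeR adjusted p = 0.0117), and overlapped at D6.

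Several measures moved with the H2A.X KO and limit these results. Without WT replicate 2 of the compared day, the calls went from 11 to 0 at D0 and from 14 to 2 at D6, BST2 and IFIT3. Over 12017 annotated genes, the log2 fold change followed summed exon length (Spearman's rho 0.430 at D0 and 0.467 at D6, as a description across genes, which are not independent). Members that were higher at D6 had a median length of 5225 bases against 1606 for those that were lower. At D0 the order was the other way, with 5067 bases for those higher and 7111.5 for those lower. With an offset for length and GC content, 12 members were called at D0 (10 higher, 2 lower) and 9 at D6 (6 higher, 3 lower). Of these, 7 and 8 were also among the calls above. The share of all genes called in that fit is not given here. IFIT2, IFIT3, EIF2AK2 and HERC5 were called at both days with this offset, and IFIT5, ADAR, BST2 and IFITM3 at D6. In the order named, their log2 fold changes at D6 with the offset were 1.96, 3.16, 1.03, 5.88, 2.04, 0.76, -0.75 and -1.25. ISG15 went to -0.06, IFITM2 to -0.68 and IFI35 to -0.17 at D6 and were no longer called, nor were PARP9, SAMHD1 and IFIH1. With the offset, ADAR, SAMHD1, PARP9 and IFI35 were not called at D0, SP100 was called lower at both days, and BST2 (0.72), IFITM2 (1.20), IFITM3 (1.34) and IFI6 (1.61) were called higher at D0.

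**Figure D3:**
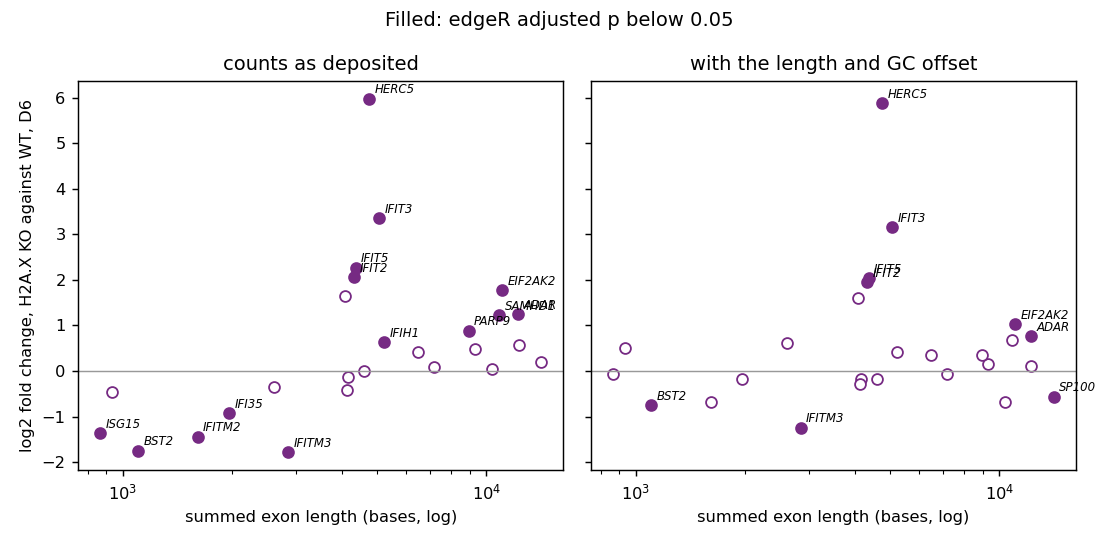
Log2 fold change of H2A.X KO against WT cells at D6 for the 26 tested members against summed exon length (bases, log axis), from the counts as deposited (left) and with an offset for length and GC content (right), where filled points have an edgeR adjusted p below 0.05. The short genes ISG15, IFITM2 and IFI35 lose their call with the offset, while HERC5, IFIT2, IFIT3 and IFIT5 stay high.

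Sums of cell type markers moved too. Summed erythroid marker counts were 432080 to 595610 in WT and 219010 to 292280 in H2A.X KO cells at D0, and 684700 to 1168200 against 784070 to 1349700 at D6. The mast cell and eosinophil list, led by TPSB2 and TPSAB1, summed to 1821 to 2456 in WT and 3679 to 7368 in KO cells at D0, and to 2541 to 4069 against 54.2 to 237 at D6, with 4 to 6 of its 11 genes at 0 in a whole group. The megakaryocyte list, nearly all ITGA2B with PF4 and PPBP at 0, summed to 153 to 170 in WT and 575 to 1330 in KO cells at D0. At D6 it summed to 62.6 to 139 in WT and 34.0 to 84.0 in KO cells. The monocyte list summed to 3.03 to 8.38 in WT and 23.8 to 33.8 in KO cells at D0, and the lymphoid and plasmacytoid dendritic list to 49.1 to 56.6 and 113 to 524. At D6 these lists overlapped, at 2.28 to 7.16 against 5.79 to 9.50 and 44.7 to 85.7 against 51.3 to 399. The fibroblast and epithelial list summed to 4915 to 7512 in WT and 3997.5 to 4071.5 in KO cells at D0. At D6 it summed to 4506 to 4833 in WT and 2582 to 4130 in KO cells. The part of these shifts in the members' differences was not tested.

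The second comparison asked the same of BAZ1B, the kinase that phosphorylates H2A.X at its terminal tyrosine. Differences were fewer. At D0, 2 of 28 members were lower and none higher in BAZ1B KO cells, where 3.88% of 13879 genes were called (1.25% higher, 2.64% lower). At D6, 2 were higher and 3 lower, against 12.8% of all genes (6.87% higher, 5.97% lower). At the stricter cutoff no member was called, against 0.360% of genes at D0 and 0.749% at D6. The median log2 fold change of the 28 members was -0.12 at D0 and -0.05 at D6, beside 0.00 and -0.00 over all genes.

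Of the 4 IFIT genes, 2 were lower than WT at D0 and 1 at D6. IFIT2 had 49.4, 68.9 and 64.3 normalised counts in WT and 18.7, 26.4 and 8.56 in BAZ1B KO cells at D0 (log2 fold change -1.75, SE 0.336, edgeR adjusted p = 0.0107). At D6 it had 68.1, 58.8 and 75.6 in WT and 20.8, 42.9 and 33.5 in KO cells (-1.07, SE 0.319, edgeR adjusted p = 0.0447). IFIT3 had 66.7, 73.2 and 89.9 in WT against 7.88, 30.1 and 27.8 in KO cells at D0 (-1.80, SE 0.390, edgeR adjusted p = 0.0214). At D6 IFIT3 had 126, 121 and 135 against 51.5, 94.0 and 38.7, groups that do not overlap, but the difference of -1.06 (SE 0.349) missed the threshold (edgeR adjusted p = 0.0666).

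IFIT1 and IFIT5 had negative estimates at both days and were not called. IFIT1 had 154, 176 and 201 in WT against 55.2, 141 and 111 in KO cells at D0, and 68.1, 47.5 and 56.4 against 22.8, 40.6 and 20.9 at D6 (log2 fold changes -0.79 and -1.04, edgeR adjusted p = 0.195 and 0.0747). IFIT5 had 0, 54.6 and 31.03 in KO cells at D0. LIPA, on the opposite strand, had log2 fold changes of -0.01 at D0 and 0.42 at D6. Each IFIT call depended on single libraries, with the D0 call of IFIT3 lost in 4 of 12 fits that left out 1 library and the D6 call of IFIT2 in 8 of 12.

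IFIT2 and IFIT3 therefore lay above their own WT cells in H2A.X KO and below their own WT cells in BAZ1B KO subclones. The 2 effects come from separate experiments with separate WT libraries, and their difference was not tested. IFIT3 in WT cells at D0 had 0.124 RPKM in the H2A.X and 0.402 RPKM in the BAZ1B experiment.

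**Figure D4:**
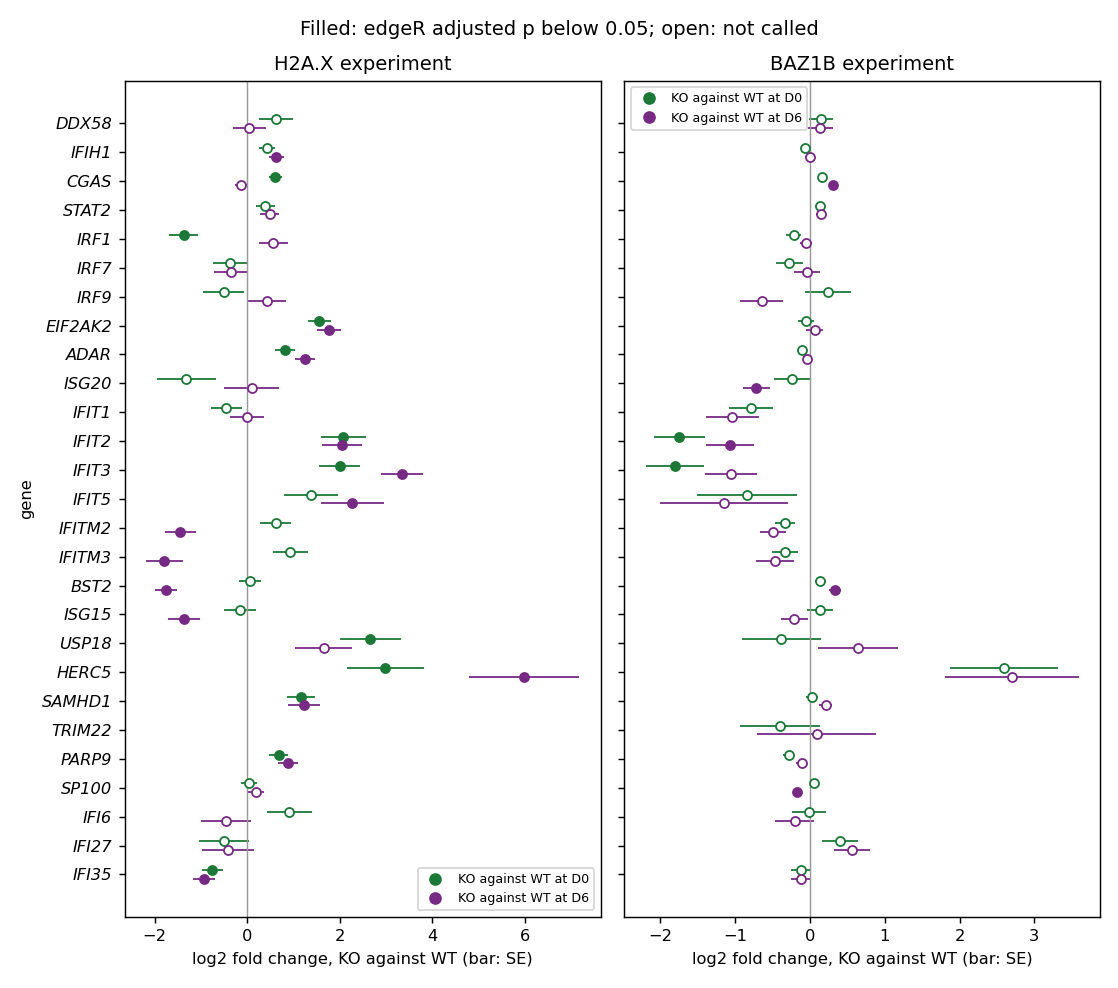
Log2 fold change of KO against WT cells with its SE for the tested members other than IFITM1, at D0 (green) and D6 (purple), in the H2A.X experiment (left) and the BAZ1B experiment (right, narrower scale). Filled points passed edgeR's test, and the HERC5 estimate at D6 on the left rests on 1 WT read.

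Of the other BAZ1B KO calls at D6, CGAS had 1164, 1195 and 1247 in WT and 1497, 1525 and 1436 in KO cells (log2 fold change 0.31, SE 0.0548, edgeR adjusted p = 0.00285). BST2 had 1581, 1614 and 1365 against 2112, 1866 and 1744 (0.33, SE 0.0792, edgeR adjusted p = 0.0156). ISG20 had 439.7, 439 and 617 in WT against 242, 299 and 368 in KO cells (-0.72, SE 0.178, edgeR adjusted p = 0.0183), and SP100 had 1393, 1362 and 1392 against 1214, 1222 and 1242 (-0.17, SE 0.0441, edgeR adjusted p = 0.0209). STAT2, IRF1, IRF7 and IRF9 were not called at either day.

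HERC5 split the BAZ1B KO subclones. Its normalised counts were 39.3, 37.0 and 45.8 in WT cells at D0 and 45.3, 418 and 277 in KO subclones 1, 2 and 3, and at D6 they were 11.2, 9.05 and 15.1 against 12.9, 138 and 84.8. Subclone 1 lay with WT at D0 and within the WT range at D6, while subclones 2 and 3 were high at both days. The log2 fold changes of 2.60 (SE 0.722) and 2.699 (SE 0.893) were not called (edgeR adjusted p = 0.0729 and 0.0683). Subclone 1 also had the lowest D0 counts for USP18, at 3.94 against 32.6 to 40.2 in WT cells, and for IFIT5.

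The KO effect of BAZ1B did not differ between the days for any of the 28 members by edgeR, against 2.47% of all genes (1.58% higher, 0.893% lower; 0.0288% at the stricter cutoff). At an unadjusted p below 0.05, 1 member passed, and DESeq2 called 0 members. Summed erythroid marker counts in BAZ1B KO and WT cells were 299210 to 315530 against 253570 to 282460 at D0 and 1258100 to 1501200 against 1518100 to 1758200 at D6. Gene by gene, 1 of 15 erythroid markers was called higher and 3 lower at D0, with a median log2 fold change of -0.01. At D6, 0 were higher and 5 lower. These were 26.7% and 33.3% of the markers, beside 3.88% and 12.8% of all genes. Lists of other cell types also shifted, the megakaryocyte list from 312 to 390 in WT to 53.4 to 179 in KO cells at D6 with PF4 and PPBP at 0, and the lymphoid and plasmacytoid dendritic list from 1145 to 1269 in WT to 446 to 947.7 in KO cells at D0, and their part in the results was not tested.

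The third comparison followed the members through maturation. In bulk samples, fewer cells of a type and less RNA per cell cannot be told apart. In the BAZ1B experiment, WT cells at D6 had 6 of 28 members higher and 10 lower than at D0, where 68.9% of all genes were called (33.5% higher, 35.4% lower), and BAZ1B KO cells had 8 higher and 12 lower, against 67.7% (33.2% higher, 34.5% lower). These shares of members were 57.1% and 71.4%. With the replicate number as a block, 21 members were called in WT and 24 in KO cells. In both genotypes, 5 members were higher and 9 lower, and the share of all genes called alike in both was not counted. In H2A.X KO cells 7 of 26 were higher and 6 lower, against 30.9% of all genes (14.8% higher, 16.1% lower), and in the WT cells of that experiment 1 member was lower, against 2.0% (0.839% higher, 1.16% lower). With the subclone number as a block, 16 members were called in H2A.X KO cells, 8 in each direction, and 5 in those WT cells, namely CGAS and ISG20 higher and EIF2AK2, IFIT1 and SAMHD1 lower.

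**Figure D5:**
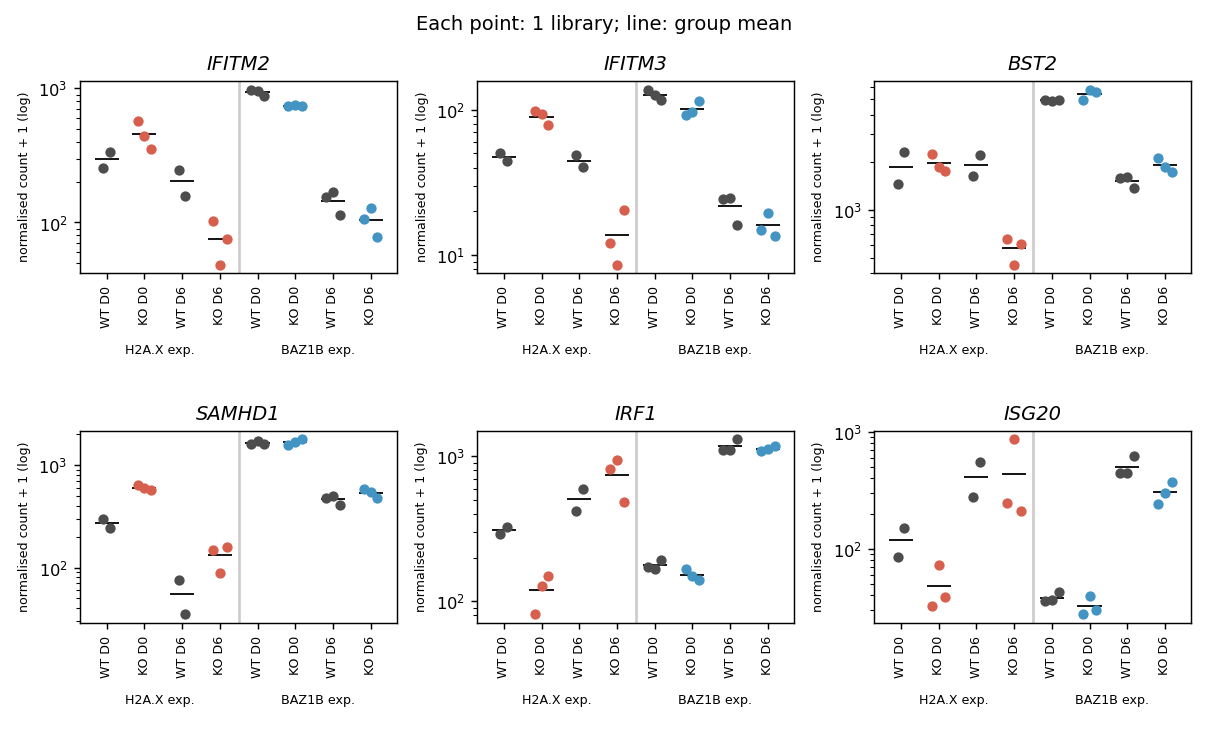
Normalised read count plus 1 (log axis, scaled within each experiment) of IFITM2, IFITM3, BST2, SAMHD1, IRF1 and ISG20 in every library, with WT in gray, H2A.X KO in red, BAZ1B KO in blue and a line at each group mean. In the BAZ1B experiment and in H2A.X KO cells, the membrane proteins and SAMHD1 fall from D0 to D6 while IRF1 and ISG20 rise.

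IRF1 and ISG20 had the largest increases among the called members. In BAZ1B experiment WT cells IRF1 went from 171, 165 and 192 at D0 to 1099, 1107 and 1309 at D6 (log2 fold change 2.73, SE 0.0941, edgeR adjusted p = 1.18e-10), and in BAZ1B KO cells from 166, 149 and 140.2 to 1089.8, 1128 and 1174 (2.898, SE 0.0964). H2A.X KO cells had a change of 2.65 (SE 0.298, edgeR adjusted p = 0.000270), and WT cells of that experiment 0.71 (not called). ISG20 went from 34.7, 35.3 and 41.4 to 439.7, 439 and 617 in BAZ1B experiment WT cells (3.74, SE 0.211, edgeR adjusted p = 5.39e-09), and changed by 3.26 in BAZ1B KO and by 3.22 in H2A.X KO cells. IRF9 was higher at D6 in BAZ1B experiment WT cells (1.17, edgeR adjusted p = 0.00312) and in H2A.X KO cells (2.06, edgeR adjusted p = 0.00317), and in BAZ1B KO cells had 0.29 and was not called.

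The membrane proteins fell together. IFITM2 went from 976, 954 and 884 to 153, 167 and 113 in BAZ1B experiment WT cells (log2 fold change -2.703, SE 0.153, edgeR adjusted p = 5.49e-09) and from 742, 751 and 738 to 105, 127 and 76.4 in BAZ1B KO cells. IFITM3 went from 136, 126 and 116 to 23.4, 23.8 and 15.1 in those WT cells (-2.60, SE 0.207, edgeR adjusted p = 1.42e-07). IFITM1 had 29 reads in WT and 18 in KO cells at D0 and 0 at D6, at least 7.91-fold lower in WT and 5.63-fold lower in KO cells against a floor of 3 reads over the group. BST2 had log2 fold changes of -1.69 (SE 0.0783) in WT and -1.503 (SE 0.0773) in KO cells of the BAZ1B experiment, both called. In H2A.X KO cells IFITM2, IFITM3 and BST2 had log2 fold changes of -2.60, -2.80 and -1.78, all called, while the WT cells of that experiment had -0.54, -0.08 and 0.03, none called.

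SAMHD1 fell in every genotype, with log2 fold changes of -2.27 (SE 0.363, edgeR adjusted p = 0.0263) in WT and -2.20 in KO cells of the H2A.X experiment, and of -1.83 and -1.65 in WT and KO cells of the BAZ1B experiment. The call in H2A.X experiment WT cells was lost in 5 of 10 fits that left out 1 library. IFIT1 was lower at D6 in both genotypes of the BAZ1B experiment (-1.62 and -1.88) and in H2A.X KO cells (-1.26), and IFIH1 was higher (0.74, 0.80 and 0.69). In H2A.X experiment WT cells IFIT1 had -1.70 and IFIH1 0.49, neither called in the fit without a block. IFIT3 was higher at D6 in KO cells of both experiments, by 1.30 in H2A.X KO (edgeR adjusted p = 0.0147) and 1.47 in BAZ1B KO cells (edgeR adjusted p = 0.00540). Their WT cells had -0.05 and 0.73 (edgeR adjusted p = 0.972 and 0.0707). The KO effect on IFIT3 was not called as different between the days in either experiment (edgeR adjusted p = 0.341 and 0.536). Erythroid marker sums rose between the days in the BAZ1B experiment in both genotypes, from the D0 to the D6 ranges given above, and the mast cell and eosinophil list fell from 17549 to 19094 to 1127 to 1532 in its WT cells.

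The signaling genes upstream of the members were tested as a list of 58 pathway components, of which 25 passed the filter in the H2A.X experiment and 29 in the BAZ1B experiment. In H2A.X KO cells 7 were higher and 4 lower at D0, and 8 higher and 5 lower at D6. These were 44% and 52% of those tested, beside 35.1% and 43.1% of all genes. IRF3, which switches on IFNB1, was lower, at -0.52 at D0 and -1.21 at D6 (edgeR adjusted p = 0.0295 and 0.00287). RNASEH2C, a subunit of the RNase that clears RNA from DNA, was lower, at -1.26 and -1.31 (edgeR adjusted p = 0.00685 and 0.00409), and PIAS1, an inhibitor of STAT signaling, was higher by 0.76 and 1.13 (edgeR adjusted p = 0.0208 and 0.00460). The length and GC offset, the blocks and the left-out libraries were examined for the members only and not for the pathway components.

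In BAZ1B KO cells none of the 29 pathway components was called at D0 by edgeR, where 9 had an unadjusted p below 0.05. At D6, 6 were higher and 1 lower, 24.1% of those tested beside 12.8% of all genes. Of 5 tested receptor genes 4 were higher, beside 6.87% of all genes. IFNAR2, a chain of the type I receptor, had means of 198 in WT and 369.7 in KO cells at D6 (log2 fold change 0.90, SE 0.132, edgeR adjusted p = 0.000706), and IFNGR2, a chain of the interferon gamma receptor, had 657 and 977 (0.57, SE 0.0991, edgeR adjusted p = 0.00226).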

How the data were processed

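The study's authors aligned the reads to hg38 with STAR 2.7.0f and counted them per gene with featureCounts of Subread 1.6.4 against GENCODE 31, per the labels and methods, and deposited whole-number counts, 1 table an experiment, which are the values used here. The labels and the methods name different library kits, and whether strand was used in counting is not given in the sources used here. No sample column was left out (0).

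Genes were filtered with filterByExpr of edgeR (minimum count 10, total 15), scaled by TMM and fitted with edgeR 4.0.16 quasi-likelihood tests in R 4.3.3, with all libraries of an experiment in 1 fit by group. Comparisons were KO against WT on each day, D6 against D0 in each genotype, and the difference of the KO effect between days. Members were called at a Benjamini-Hochberg adjusted p below 0.05 over all genes tested. Normalised counts are scaled to the mean library of the experiment. Exon lengths are from GENCODE 44, all exons of a gene merged, so RPKM understates genes with many isoforms. Intervals and limits for counts of 0 (3 counts, 95%) cover counting error only. The labels do not say that libraries of a group were separate cultures beyond their subclone, so p-values measure the spread between these libraries.

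Values in every library are given for members past the test, at most 10 an experiment by smallest adjusted p. They are also given for those whose effect differed between days, and in part for the largest changes between days. For HERC5 at D6 in the H2A.X experiment, reads are given as group sums only. Other members are given by counts or shorter values. The members and gene lists were chosen with earlier results of these data known. Alternatives were DESeq2 1.42.0, upper-quartile scaling, no globin genes, no filter, fits of 1 day or genotype, a stricter cutoff, an offset for length and GC content, a replicate block, and leaving out each library. The fit was tested on simulated data. In the H2A.X experiment D0 and D6 libraries of the same number deviated together (correlations 0.491 in WT and 0.297 to 0.600 in KO cells), and so did those of BAZ1B KO cells (0.162 to 0.658), so blocked counts are given beside the days. Those of BAZ1B experiment WT cells had 0.00868 to 0.183, and numbers shared by KO and WT libraries were not shown to pair them.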

Additional observations from a re-analysis of the deposited data

Results flagged for a closer look

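The H2A.X KO effect on 2 membrane proteins differed between the days by the test of the difference itself. For IFITM3 the D6 effect less the D0 effect came to -2.72 on the log2 scale (SE 0.542, edgeR adjusted p = 0.0424), with KO libraries above WT at D0 and below WT at D6. For BST2 it was -1.81 (SE 0.344, edgeR adjusted p = 0.0361), with overlapping libraries at D0 and KO libraries below WT at D6. With an offset for length and GC content both differences were still called. Leaving out 1 library raised the adjusted p to as much as 0.166 for IFITM3 and 0.143 for BST2. Between the days, IFITM3 changed by -2.80 in H2A.X KO, -0.08 in H2A.X experiment WT and -2.60 in BAZ1B experiment WT cells. BST2 changed by -1.78, 0.03 and -1.69 in the same order. Of all genes, 2.0% were called between the days in H2A.X experiment WT cells and 68.9% in BAZ1B experiment WT cells. Why the WT cells of the experiments differed was not tested.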

How the results depend on the processing

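The H2A.X results have only 2 WT libraries a day, and leaving 1 out assumes that the other varies like the remaining groups. Leaving out each library in turn gave 0 to 14 called members in H2A.X KO against WT cells at D0, 2 to 15 at D6, 0 to 4 for the difference between days, 0 to 3 for WT days and 11 to 14 for KO days. In the BAZ1B experiment it gave 0 to 6 at D0, 2 to 9 at D6, 0 to 1 for the difference, 13 to 21 for WT days and 17 to 21 for KO days. The stricter cutoff left 0 members in every comparison of KO with WT cells, 0 for the H2A.X difference and WT days, 5 for H2A.X KO days, and 7 for each genotype's days in the BAZ1B experiment. DESeq2 called 4 (BAZ1B D0), 9 (BAZ1B D6), 3 (H2A.X WT days) and 5 members (H2A.X difference). Without the filter on low counts these were 7, 10, 4 and 5. Fits of 1 day or genotype gave 9 for BAZ1B D6 and 3 for H2A.X WT days. The length and GC offset gave 9 for H2A.X D6 and 2 for H2A.X WT days, and upper-quartile scaling gave 1 for the BAZ1B difference. With the replicate block 4 (BAZ1B D0), 8 (BAZ1B D6), 5 (H2A.X WT days) and 4 members (H2A.X difference) were called, and with the block and the offset 4 (BAZ1B D0), 4 (H2A.X WT days) and 5 (H2A.X difference). Same-numbered BAZ1B libraries correlated by -0.041 to 0.185 between KO and WT, so the block there rests on a number alone. The fold change of BST2 at D0 in H2A.X KO cells, 0.06 and not called, was -0.011 with upper-quartile scaling and ranged from -0.23 to 0.44 with 1 library left out. The cause of these shifts was not tested. Shares of all genes called with a library left out, DESeq2, a block, an offset or another scaling or filter are not given here.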

Other observations

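A wider list of interferon-stimulated genes outside the set was also measured, with 38 genes tested beside H2A.X KO and 39 beside BAZ1B KO. In H2A.X KO cells 14 were higher and 3 lower at D0, and 15 higher and 1 lower at D6, which is 44.7% and 42.1% of those tested beside 35.1% and 43.1% of all genes. HERC6, a relative of HERC5, was higher at both days (log2 fold changes 1.58 and 3.74, edgeR adjusted p = 0.0306 and 0.00307). SAMD9L, a translation repressor, was higher at D6 (2.92, SE 0.425, edgeR adjusted p = 0.00327). Genes of this wider list were not examined with the length and GC offset, a block or a library left out.

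In BAZ1B KO cells edgeR called none of the 39 at D0, where 3 had an unadjusted p below 0.05, and 2 higher and 5 lower at D6, 17.9% beside 12.8% of all genes. RSAD2, the antiviral enzyme viperin, had means of 689.7 normalised counts in WT and 259.8 in KO cells at D6 (log2 fold change -1.41, SE 0.121, edgeR adjusted p = 1.48e-05). LGALS3BP, a secreted glycoprotein, was higher (log2 fold change 1.80, SE 0.259, edgeR adjusted p = 0.000664).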
